A study of Mus musculus with 34 samples.

Results

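CpG islands that lie between the starts of a pair of genes read in opposite directions were examined in methylated DNA from mouse tissues, embryos, embryonic stem (ES) cells and cultured pancreatic cells. Array probes were joined into islands where the gap between neighbouring probes was at most 500 bases, and an island needed at least 3 probes. An island was kept when DIVERGENT_PROMOTER was the most common annotation among its probes and it lay on an autosome. In all 278 of the 13616 islands with a score on every array met this rule, and they belonged to 259 gene pairs, of which 242 had 1 island and 17 had several. Another 7 such islands had no score on at least 1 array and 6 lay on chromosome X, and these were left out.

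Methylated DNA was pulled down with an antibody to 5-methylcytidine (mDIP), and bound and input DNA were labelled with different dyes and hybridised together on CpG island arrays, 1 array per sample and 34 in all. The question behind the design was whether ES cells, before and after differentiation in culture, carried methylation at CpG islands that tissues of the mouse did not. For each array the log ratio of bound over input was turned into a Z-score over its probes, and the score of an island is the mean Z of its probes, so that 0 is the average probe of that array. Following the thresholds of the study, a score below 0 is the low class and a score above 0.75 the high class.

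The adult tissues were colon, pancreas, brain, kidney, liver, lung, muscle and spleen of 3 month old mice with 2 arrays each, and whole embryos were taken at 8.5, 9.5, 10.5, 11.5 and 12.5 days post coitum with 1 array each; mouse DNA came from the C57Bl/6 strain. The colon and pancreas arrays were of males and the lung arrays of females. In brain, kidney, liver, muscle and spleen 1 array was of a female and the other of a male. Embryos were male apart from that of 12.5 days, which was female, and no sex is listed for the other samples. Undifferentiated ES cells were the lines EB5, J1 and TT2 with 1 array each. Differentiated ES cells were represented by 5 arrays, which held embryoid bodies made from TT2 by the hanging drop method, retinoic acid treated cells, 2 arrays of endoderm and 1 of mesoderm, the last 3 sorted after Activin A treatment from a reporter derivative of EB5. The labels name TT2 as the parent of the retinoic acid treated cells where the methods name J1, and they name J1 as the parent of the 2 teratomas, which were grown under the skin of NOD-SCID mice, where the methods name another line. Pancreatic cells were ex vivo beta cells, Min6, an insulinoma line with beta cell character, and aTC, a glucagonoma line with alpha cell character, with 1 array each. The beta cells were sorted with anti-insulin antibodies from hand-picked islets. Those islets came from transgenic mice with a Pdx1-GFP construct and of a range of ages, not 3 months alone. DNA arrays carry no expressed markers against which these cell types could be checked, and as the sources do not say that arrays of a class came from separate animals or cultures throughout, p-values measure the spread between arrays.

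A divergent promoter drives a pair of neighbouring genes placed head to head, each transcribed away from the other. Such promoters are common in mammals, are often rich in CpG, frequently lack a TATA box, and many serve genes that every cell needs, among them genes of DNA repair, of mitochondria and of histones. CpG islands at active or poised promoters are usually free of DNA methylation, and methylation of a promoter island goes with stable silencing. On the arrays used here the annotation is wide, since the distance between the paired starts in the files ran from 132 to 15271 bases with a median of 4609. The starts were at most 1000 bases apart for 52 of the islands, between 1000 and 5000 bases apart for 91 and further apart for 135. For 232 of the 278 islands a divergent-promoter probe lay within 500 bases of the nearer start. The others lay further off, so an island named for a gene need not lie at its start. An island had 3 to 21 probes with a median of 6 and covered a median of 625 bases, against 682 bases over all scored islands.

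Promoter sequences of RefSeq genes (build GRCm38.p6, 250 bases before to 50 bases after the start) were available for the nearer gene of 224 of the 278 islands, which made 218 genes. Of the 259 pairs, 171 had both genes in that table and 169 of these lay head to head there, but only 115 of the 169 had the distance of the array files to within 500 bases, so distances refer to the older gene models of the array. Coordinates of the promoter windows are those of RefSeq, and they cannot be set beside island positions of the array. The promoters of the 218 genes held a median of 22 CpG in 300 bases and 61.7% G and C, whereas all 25748 autosomal promoters of the table held a median of 7 CpG and 53% G and C. The letters TATAAA, searched on both strands, stood in 7.80% of the 218 windows and in 14.2% of all windows, though in 7 of the 40 windows at islands with starts at most 1000 bases apart (17.5%). CCAAT stood in 44.0% and 37.8%. GGGCGG, the core of the Sp1 box, was present in 64.2% against 36.3% and CGGAAGT, an Ets-type core, in 14.2% against 6.69%. None of these motifs was tested for overlap with another, and a match is a description of the letters in the window only. The 218 genes were found through islands of a CpG island array, so CpG-rich windows were favoured by the choice itself. Promoters at islands of single genes were not searched, so these shares are not read as traits of divergent promoters.

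Promoter windows are shown for genes at some of the islands that differed most between differentiated ES cells and adult tissue, and for Fv1 and Tex12. Every CpG is in capitals. Krt87 and Sfrp4, whose islands also differed strongly, are not shown. The windows stand at gene starts and are not the sequence of the islands. In the array files the Cysrt1 and Rnf208 island lies 776 and 1817 bases from these starts. That of Ciz1 and Dnm1 lies 1393 and 8136 bases from theirs. The Ltbr promoter (chr6:125313836-125314135, minus strand) stands at the island with the largest rise in differentiated ES cells. Cysrt1 (chr2:25239848-25240147, minus strand) and Rnf208 (chr2:25242679-25242978, plus strand) flank the island with the smallest adjusted p in the same comparison, and the CpG-poor window of the former contrasts with the latter. Prrxl1 (chr14:32599677-32599976, plus strand) is a homeobox gene whose island rose in ES cells and in pancreatic lines. Ciz1 (chr2:32362760-32363059, plus strand) and Dnm1 (chr2:32353280-32353579, minus strand) flank an island with a wide spread among differentiated cells. Fv1 (chr4:147868729-147869028, plus strand) and Tex12 (chr9:50561219-50561518, minus strand) were added after their values were seen, the former as the single island called in teratomas and the latter as an island with a high score in all samples.
Ltbr: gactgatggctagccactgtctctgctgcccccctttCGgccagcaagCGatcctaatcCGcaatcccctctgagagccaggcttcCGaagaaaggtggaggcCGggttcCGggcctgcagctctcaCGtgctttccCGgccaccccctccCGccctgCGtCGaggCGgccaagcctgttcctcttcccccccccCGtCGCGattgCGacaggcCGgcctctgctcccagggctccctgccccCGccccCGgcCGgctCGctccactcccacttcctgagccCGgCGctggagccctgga
Cysrt1: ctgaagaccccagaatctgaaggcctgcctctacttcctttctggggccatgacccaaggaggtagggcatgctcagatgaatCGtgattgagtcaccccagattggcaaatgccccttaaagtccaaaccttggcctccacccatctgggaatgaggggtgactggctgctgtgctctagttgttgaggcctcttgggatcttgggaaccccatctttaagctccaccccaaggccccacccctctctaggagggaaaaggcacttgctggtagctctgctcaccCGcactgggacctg
Rnf208: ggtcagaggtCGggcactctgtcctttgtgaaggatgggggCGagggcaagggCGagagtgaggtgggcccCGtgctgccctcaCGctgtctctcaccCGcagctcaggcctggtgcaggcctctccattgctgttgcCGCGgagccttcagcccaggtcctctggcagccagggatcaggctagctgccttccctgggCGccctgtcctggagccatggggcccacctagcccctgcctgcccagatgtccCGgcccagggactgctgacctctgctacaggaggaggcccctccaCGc
Prrxl1: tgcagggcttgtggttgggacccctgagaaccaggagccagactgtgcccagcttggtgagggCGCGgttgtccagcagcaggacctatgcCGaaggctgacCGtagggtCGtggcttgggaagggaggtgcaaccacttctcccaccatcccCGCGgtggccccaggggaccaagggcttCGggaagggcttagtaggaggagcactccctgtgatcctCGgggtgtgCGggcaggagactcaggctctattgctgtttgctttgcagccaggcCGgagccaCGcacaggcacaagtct
Ciz1: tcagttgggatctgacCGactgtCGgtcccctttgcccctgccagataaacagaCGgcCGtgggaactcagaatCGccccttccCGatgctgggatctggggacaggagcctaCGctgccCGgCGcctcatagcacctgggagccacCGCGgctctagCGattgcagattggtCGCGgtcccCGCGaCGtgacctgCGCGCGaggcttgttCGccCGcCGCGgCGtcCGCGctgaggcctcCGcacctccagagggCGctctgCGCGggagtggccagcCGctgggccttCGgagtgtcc
Dnm1: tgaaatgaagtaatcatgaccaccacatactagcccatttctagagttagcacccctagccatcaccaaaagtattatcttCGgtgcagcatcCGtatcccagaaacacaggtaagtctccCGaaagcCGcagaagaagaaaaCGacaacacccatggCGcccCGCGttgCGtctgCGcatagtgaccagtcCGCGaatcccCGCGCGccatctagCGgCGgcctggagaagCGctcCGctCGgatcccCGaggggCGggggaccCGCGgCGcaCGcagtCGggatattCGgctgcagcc
Fv1: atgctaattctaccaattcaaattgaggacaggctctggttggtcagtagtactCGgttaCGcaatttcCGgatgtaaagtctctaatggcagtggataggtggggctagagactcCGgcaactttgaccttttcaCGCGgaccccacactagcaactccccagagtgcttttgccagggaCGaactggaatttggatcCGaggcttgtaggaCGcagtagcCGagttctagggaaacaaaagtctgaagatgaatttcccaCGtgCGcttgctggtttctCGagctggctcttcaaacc
Tex12: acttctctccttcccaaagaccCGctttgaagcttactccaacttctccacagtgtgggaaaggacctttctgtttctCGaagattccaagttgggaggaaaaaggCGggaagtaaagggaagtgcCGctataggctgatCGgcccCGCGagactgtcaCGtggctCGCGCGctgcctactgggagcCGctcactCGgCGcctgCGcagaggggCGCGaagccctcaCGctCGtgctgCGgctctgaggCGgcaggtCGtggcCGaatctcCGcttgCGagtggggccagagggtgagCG
The Ciz1 window has 33 CpG, the Dnm1 window 28, Tex12 26, Ltbr 23, Fv1 13, Prrxl1 12, Rnf208 11 and Cysrt1 2. The windows of Fv1 and of its partner Miip, on the opposite strand, share 241 bases, since the 2 starts are 260 bases apart in the table.

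Quality was uneven between arrays. Input DNA stood at 3.07 to 7.34 times the local background by array median, and bound DNA at only 1.54 to 5.59 times. Over the 278 islands replicate arrays of a tissue or cell type correlated with r of 0.617 to 0.895. Log ratios of the J1 array correlated with the value table deposited for it at r = 0.113, while the other 33 arrays lay between 0.894 and 0.991, so counts and named calls against undifferentiated ES cells or of them against adult tissue are also given without J1. Arrays were printed on 23 slides, of which few held more than 1 class, and with slide as a block 33 of the 43 differences named below that could be fitted no longer passed the threshold. The threshold was also missed by 29 of 43 with scan day as a block and by 23 of 44 with scanner software version. With normexp background correction 29 of 44 no longer passed.

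Divergent-promoter islands had low scores in every kind of sample. The median of the mean adult score was -0.324 over the 278 islands and -0.212 over all 13616, and it was -0.266 over the 2394 autosomal islands at promoters of single genes, -0.211 over 7514 islands inside genes and -0.103 over 410 islands downstream of genes. Over the 905 autosomal islands with a tie between annotations it was -0.288. On each of the 34 arrays the median of the divergent-promoter islands was below that of all islands, with a gap between -0.281 on endoderm 1 and -0.0405 on liver 2. It was above that of single promoters on liver 2 (-0.215 against -0.220), brain 2 (-0.221 against -0.224) and retinoic acid treated cells (-0.223 against -0.233). These medians are descriptions of the lists and no test was made between them. Array medians of the 278 islands ran from -0.454 to -0.215 in adult tissue, from -0.286 to -0.216 in embryos, from -0.327 to -0.265 in undifferentiated ES cells and from -0.411 to -0.223 in differentiated ES cells, so the classes overlapped. The beta cells had a median of -0.269, whereas Min6 had -0.509 and aTC -0.572, the lowest of all 34 arrays. The medians over all islands were also lowest on those 2 arrays, at -0.308 and -0.338, against -0.138 in the beta cells.

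**Figure D1:**
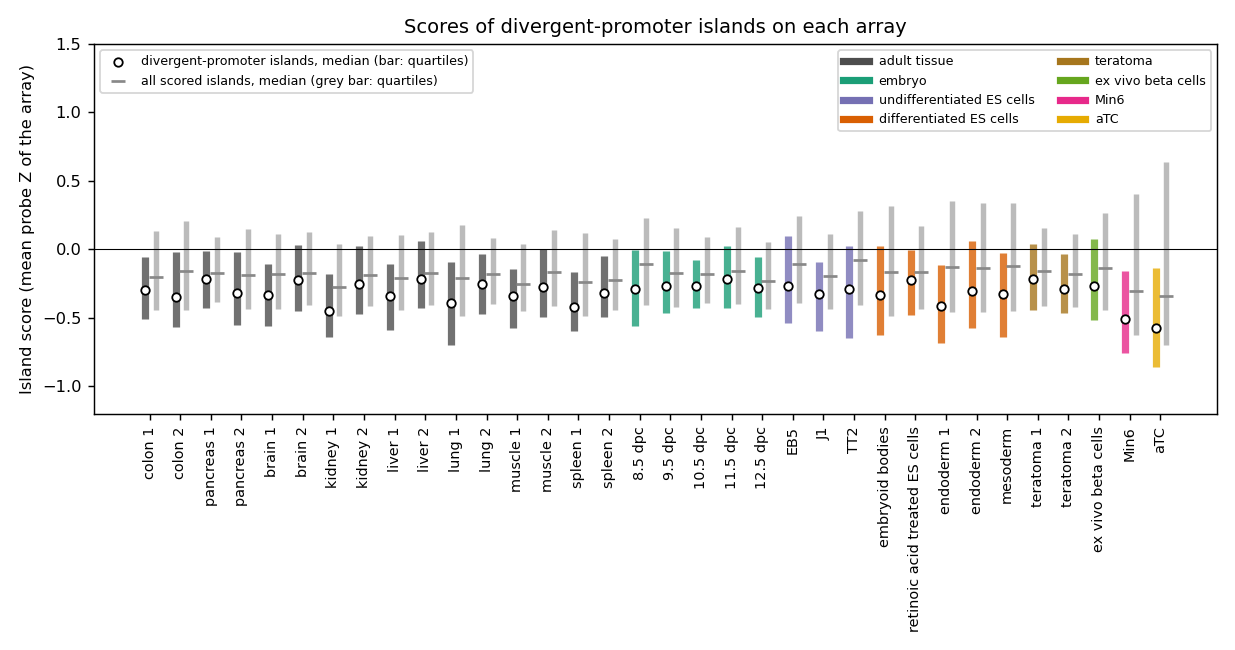
Median score (points) and quartiles (bars) of the 278 divergent-promoter islands on each of 34 arrays, beside the median and quartiles of all scored islands in grey. Colours mark the classes of sample, the vertical axis is the island score (mean probe Z) and the members' median lies below the grey median on all 34 arrays.

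Scores below 0 on every one of the 16 adult arrays were found at 110 divergent-promoter islands, or 39.6%, where the share over all scored islands was 29.8% and over islands at single promoters 35.0%. Scores above 0.75 on every adult array were found at 3, or 1.08%, against 7.37% over all islands and 1.92% at single promoters. Autosomal islands with a tie between annotations were close to these, with 37.3% below 0 and 0.994% above 0.75. The count of low islands rests on the threshold, as 28 islands were below -0.25 and 176 below 0.25 on every adult array, and in the deposited value table, which scored 93 of the 278, it was 48, or 51.6%. It rests on membership too. Among the 71 islands whose every probe is divergent 17 were below 0, or 23.9%, under the share of all islands. Among the 1215 islands with at least 1 divergent probe it was 551, or 45.3%. Only 24 islands passed 0.75 on any adult array. The lowest mean adult score, -1.04 (SD 0.305, n = 16), belonged to the island of Usp5, a deubiquitinating enzyme, and Cdca3, a cell cycle protein, whose starts are 787 bases apart and whose scores ran from -1.55 to -0.519. These 2 genes were singled out after their values were seen.

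By the distances of the array files, islands of close pairs had lower scores than those of distant pairs. Some pairs that are distant there are close in the RefSeq promoter table. Toe1 and Mutyh, for example, are 6765 bases apart in the array files and 175 in that table. The order was not redone with the RefSeq distances. Those with starts at most 1000 bases apart had a median adult score of -0.485 and 55.8% of them were below 0 on every adult array. For starts between 1000 and 5000 bases apart the median was -0.304 and the share 41.8%, and for wider pairs the median was -0.273 and the share 31.9%, near the 29.8% of all islands. No island of the closest class passed 0.75 on every adult array (0 of 52), and 1 of 91 and 2 of 135 did so in the wider classes. Position of the probes went along with this order, since the 226 islands with a probe within 250 bases of a start had a median of -0.350 and the 52 others -0.183. Probe by probe, divergent-promoter probes up to 100 bases from the nearer start had a median adult Z of -0.356 and those between 500 and 1000 bases -0.374, and the median was -0.271 between 1000 and 2000 bases and -0.148 between 2000 and 5000 bases. Probes at single promoters had medians of -0.256, -0.307, -0.204 and -0.159 over the same distances, higher than divergent ones up to 2000 bases and lower beyond. These comparisons describe probes that share islands, and were not tested.

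**Figure D2:**
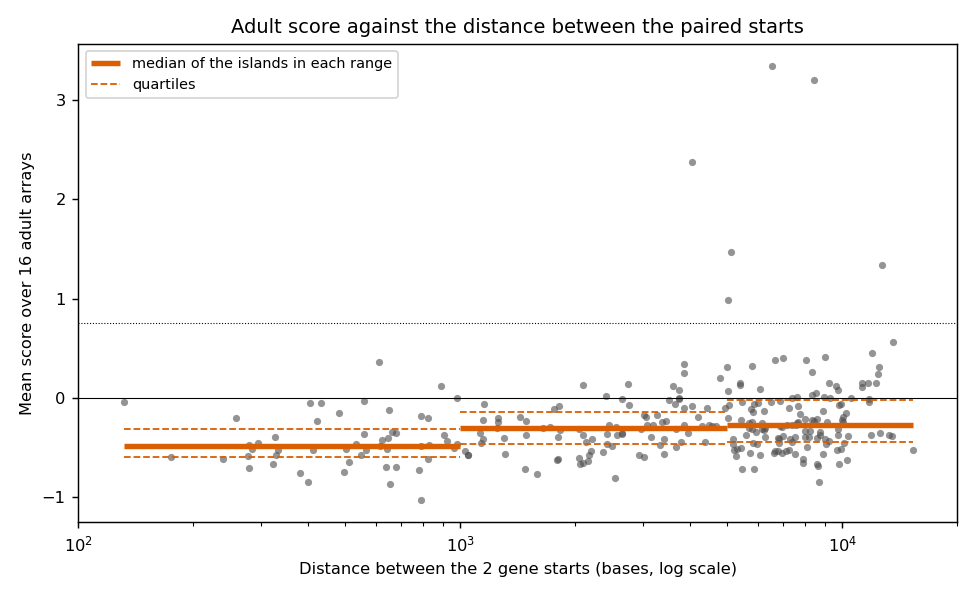
Mean score over 16 adult arrays (vertical axis) of each of the 278 islands against the distance between the 2 gene starts in bases (log scale), with medians (thick lines) and quartiles (dashed) of the 3 distance ranges. The medians are -0.485, -0.304 and -0.273, and the islands above the dotted line at 0.75 have starts at least 4042 bases apart in the array files.

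The 3 islands with high scores on all adult arrays lay at genes of varied kind. The island of Mlc1, a membrane protein of astrocytes, and Mov10l1, a helicase of the piRNA pathway in male germ cells, had adult scores of 2.85 to 3.82 with a median of 3.34, and 2.79, 3.61, 4.07, 3.42 and 3.45 in embryos of 8.5 to 12.5 days. It scored 3.46 in EB5, 3.59 in J1 and 2.80 in TT2, and 3.74 and 3.43 in the teratomas, of which 2.79, 4.07 and 2.80 lay just outside the adult range. That island lies 2309 bases from the Mov10l1 start and 3699 bases from that of Mlc1. The island at BC050210, on the other side of which lies Cox5b, a subunit of cytochrome c oxidase, had adult scores of 2.71 to 3.81 with a median of 3.20 and embryo scores of 2.69 to 3.72. Its probes begin 102 bases from the start of BC050210 and 8031 bases from that of Cox5b, so the mitochondrial gene is the far member of the pair. The island at Tex12, a component of the synaptonemal complex of meiosis, paired with the cytokine gene Il18, had adult scores of 1.50 to 3.40 with a median of 2.40 and embryo scores of 2.28, 2.35, 2.36, 2.35 and 2.38. In the RefSeq promoter table this pair did not lie head to head. Its starts were 6568 bases apart there, against 4042 in the array files. With the deposited values 1 of the 93 scored islands passed 0.75 on all adult arrays, or 1.08%.

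Differences between adult tissues were tested against the spread between the 2 arrays of a tissue, a design that called few islands of any kind. A moderated F-test over the 8 tissues (limma, Benjamini-Hochberg over 13616 islands) called 0 of the 278 islands, where 0.0808% of all islands were called, and 3 had an unadjusted p under 0.05, as did 538 of all islands. In brain, kidney, liver, lung, muscle and spleen replicate 1 was scanned on a single day from the larger of 2 probe grids and replicate 2 on other days from the smaller, and the median of the 278 islands was lower in replicate 1 in all 6. Replicate 1 was also female and replicate 2 male in these tissues apart from lung, where both were female. The spread between replicates thus includes that between scans, and outside lung that between sexes, which cannot be told apart from it. The widest range of tissue means was 2.25, at the island between Hoxa2, a homeobox gene of the hindbrain, and 5730596B20Rik. That island lies 7609 bases from the Hoxa2 start and 4653 bases from that of 5730596B20Rik. Its scores were 2.62 and 1.90 in colon, 0.459 and 0.566 in pancreas, 0.930 and -0.141 in brain, 3.48 and 1.00 in kidney, -0.539 and 0.555 in liver, 1.80 and 1.51 in lung, 1.53 and 1.23 in muscle, and 1.23 and 3.27 in spleen. The arrays of kidney and of spleen were further apart than most tissues were, and the adjusted p was 1.00. The smallest unadjusted p of the F-test among the 15 islands with the widest ranges, 0.00373, was that of the island between Slc35g3 (Amac1 on the array) and Zbtb4, a methyl-CpG-binding zinc finger protein. That island lies 4222 bases from the Slc35g3 start and 8760 bases from that of Zbtb4. Colon scored 1.43 and 1.23 there, above all other adult arrays, which lay between 0.0949 and 0.758, and the adjusted p was 0.612.

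Differentiated ES cells had about as many divergent-promoter islands above adult tissue as below it. In the limma fit 22 islands were higher in differentiated ES cells, or 7.91%, where 14.4% of all islands were called higher, and 24 were lower, or 8.63%, where 8.73% of all islands were. The 46 islands made 16.5%, where 23.2% of all islands were called, and their differences ran from 0.226 to 2.07 in size, and the median difference over the 278 islands was -0.0188 against -0.00995 over all islands. With normexp background correction 17 were higher and 6 lower, in the deposited values 6 and 10 of 93 (17.2%, where 22.3% of all islands were called), and with slide as a block 26 were called. Shares of all islands under normexp and the slide block are not given here, so these shifts are not read as particular to the 278 islands. On single arrays 12 to 19 of the 278 islands were above 0.75 in differentiated ES cells, 5 to 12 in adult tissue, 6 to 8 in embryos and 7 to 12 in undifferentiated ES cells. Over all islands the shares in the same order were 12.4% to 16.7%, 10.1% to 14.5%, 9.36% to 11.8% and 10.5% to 11.1%, and those of the 278 islands 4.32% to 6.83%, 1.80% to 4.32%, 2.16% to 2.88% and 2.52% to 4.32%. A score below 0 on every adult array together with one above 0.75 on at least 1 array of differentiated ES cells was found at 2 of the 278 islands, or 0.719%, where 0.881% of all islands had both. Among the low islands alone this was 1.82%, against 2.96% over all islands. They were the islands of Cysrt1 with Rnf208 and of Trp73 with Wrap73, and 1 remained when endoderm 1 was left out.

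**Figure D3:**
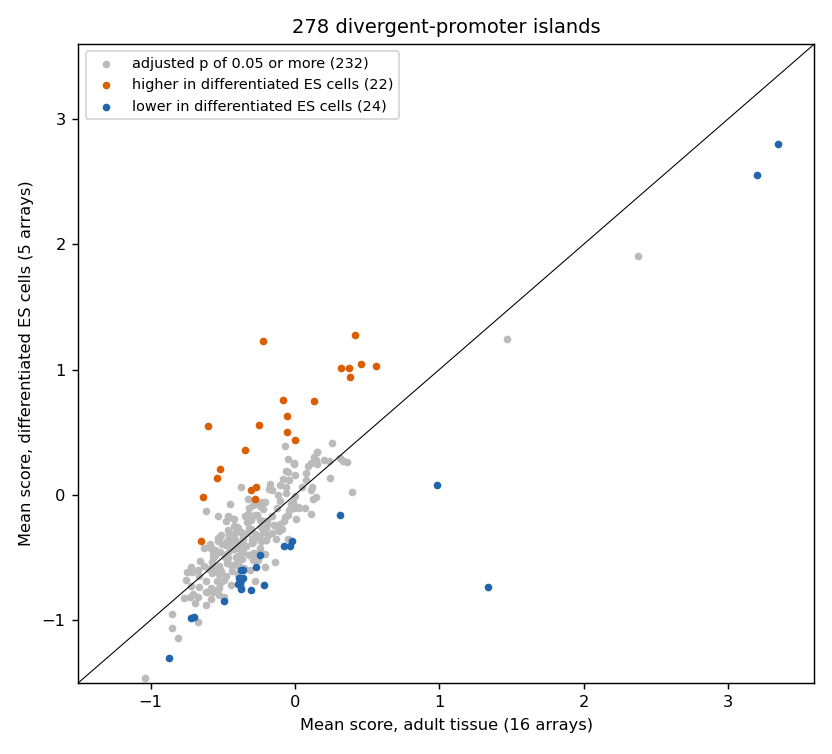
Mean score in differentiated ES cells (5 arrays, vertical) against mean score in adult tissue (16 arrays, horizontal) for the 278 islands, coloured by the limma call at an adjusted p of 0.05, with the line of equal scores. The 22 higher islands lie above the line, all at adult means of at most 0.561, and 4 of the 24 lower ones have adult means above 0.9.

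The largest rise was at the island of Ltbr, the lymphotoxin beta receptor, and Scnn1a, a subunit of the epithelial sodium channel (chr6:125279318-125279822 in the coordinates of the array, whose build is not given in the sources used here). The island begins 64 bases from the Ltbr start and 7671 bases from that of Scnn1a. Its scores were 1.60 in embryoid bodies, 1.55 in retinoic acid treated cells, 0.288 and 1.35 in endoderm and 1.37 in mesoderm. Adult tissue ran from -0.979 to 0.797 with a median of -0.380, so endoderm 1 was the single differentiated array inside the adult range. The difference was 1.45 (SE 0.255, adjusted p = 9.14e-05, limma), and with slide as a block 1.38 with an adjusted p of 0.0535. On shared slides endoderm 2 exceeded pancreas 1 by 1.96 and embryoid bodies exceeded brain 2 by 0.807. Undifferentiated EB5 and TT2 already stood at 1.16 and 1.27 while J1 was at -0.451, and against adult tissue the adjusted p was 0.140 with J1 and 0.00456 without it. Embryos had 0.154, 0.321, -0.0862, 0.103 and -0.240, within the adult range, and differentiated cells were 1.18 above them (SE 0.315, adjusted p = 0.00782, limma).

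The smallest adjusted p belonged to an island between Cysrt1 and Rnf208, which encode a cysteine-rich protein and a RING finger protein and are named 2310002J15Rik and 1110061N23Rik on the array (chr2:25062656-25063145, same coordinates). Scores were 0.437 in embryoid bodies, -0.0198 in retinoic acid treated cells, 0.773 and 1.20 in endoderm and 0.360 in mesoderm. All 5 lay above every adult array, which ran from -0.901 to -0.309 with a median of -0.655. The undifferentiated lines had -0.773, -0.590 and -0.581 and the teratomas -0.744 and -0.767, inside the adult range. The difference from adult tissue was 1.15 (SE 0.128, adjusted p = 1.12e-07, limma), and it was 1.20 with an adjusted p of 0.00246 with slide as a block. Against undifferentiated ES cells it was 1.20 (SE 0.183, adjusted p = 0.000273, limma) and without J1 1.23 with an adjusted p of 0.000988. Among pancreatic cells beta cells had 0.201, Min6 -0.166 and aTC 0.661.

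Prrxl1, a homeobox gene of sensory neurons, gave another island with no overlap between differentiated ES cells and adult tissue. Scores were 0.697 in embryoid bodies, 0.985 in retinoic acid treated cells, 0.505 and 0.889 in endoderm and 0.700 in mesoderm, where adult arrays ran from -0.420 to 0.270 with a median of -0.0718. Here the undifferentiated lines EB5 and TT2 were as high, at 1.37 and 0.990, and J1 at -0.281 was inside the adult range. The difference of differentiated cells from adult tissue was 0.838 (SE 0.157, adjusted p = 2e-04, limma). Undifferentiated ES cells were 0.777 above adult tissue (SE 0.193, adjusted p = 0.0285, limma), and 1.26 without J1, with an adjusted p of 2.4e-06. Embryos had -0.437, 0.0963, 0.136, -0.0932 and -0.235 and the teratomas -0.185 and 0.233, both near the adult values.

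Other islands also rose in differentiated ES cells. That at Sfrp4, a secreted antagonist of Wnt signalling, paired with Epdr1, had 0.664, 0.0430, 0.950, 0.670 and 0.481 in embryoid bodies, retinoic acid treated cells, endoderm 1, endoderm 2 and mesoderm, against -0.815 to 0.395 in adult tissue. It rose by 0.807 over adult tissue (SE 0.142, adjusted p = 8.78e-05, limma) and by 0.897 over undifferentiated ES cells (SE 0.202, adjusted p = 0.00824). Retinoic acid treated cells were again the lowest of the 5 arrays. The island between Dnm1, the dynamin of neuronal endocytosis, and Ciz1, a nuclear matrix protein of DNA replication, had 0.136, -0.387, 1.03, 0.486 and -0.251 in the same order, against -1.21 to 0.171 in adult tissue, so 2 of the 5 arrays lay above the adult range. The difference was 0.724 (SE 0.191, adjusted p = 0.00588, limma), and 0.544 with an adjusted p of 0.172 with slide as a block.

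The pair of Espn, an actin-bundling protein of sensory hair cells, and Hes2, a repressor of the Hairy family, had 2 islands of different level that both rose. Near Hes2 adult scores were -0.842 to -0.203 and differentiated cells had -0.235, 0.0419, 0.401, 0.306 and 0.158, a rise of 0.674 (SE 0.0978, adjusted p = 6.61e-06, limma). Near Espn adult scores were 0.0836 to 0.992 and differentiated cells had 1.16, 0.919, 0.994, 1.45 and 0.543, a rise of 0.635 (SE 0.119, adjusted p = 0.000185, limma). Between islands of 1 pair the mean adult score differed by a median of 0.422 over the 21 such pairs of islands, and by up to 1.19.

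The remaining rises among the largest concerned genes of varied kind. Krt87 and Krt88, keratins of hair, had 0.654 to 1.63 in differentiated ES cells and -0.102 to 1.58 in adult tissue, a rise of 0.865 (SE 0.195, adjusted p = 0.00151, limma) with overlapping groups. The island between Spata3, a testis gene, and Zfp617, which the RefSeq gene table places on another chromosome, rose by 0.706 (SE 0.109, adjusted p = 1.63e-05), and 4 of 5 differentiated arrays were above all adult ones. At Wrap73, paired with Trp73, a member of the p53 family, differentiated cells had -0.366, -0.586, 0.75, 0.119 and 0.00231 against -0.939 to -0.305, a rise of 0.622 (SE 0.136, adjusted p = 0.00109). Lgals12, a galectin of fat cells, with Plaat5, a phospholipase, had 0.796, 0.00826, 0.979, 0.976 and 0.983 against -0.0606 to 0.492 in adult tissue, and every sample but the retinoic acid treated cells was above the adult range. Its rise was 0.617 over adult tissue (SE 0.113, adjusted p = 0.000142) and 0.728 over undifferentiated ES cells (SE 0.160, adjusted p = 0.00716).

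Current symbols are used in the text, and the plots carry the names of the array, which are Krt2-25 and 1700011A15Rik for Krt87 and Krt88, Epdr2 for Epdr1, D4Wsu114e for Miip, Wdr8 for Wrap73, Hrasls5 for Plaat5 and 0610007C21Rik for Atraid.

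**Figure D4:**
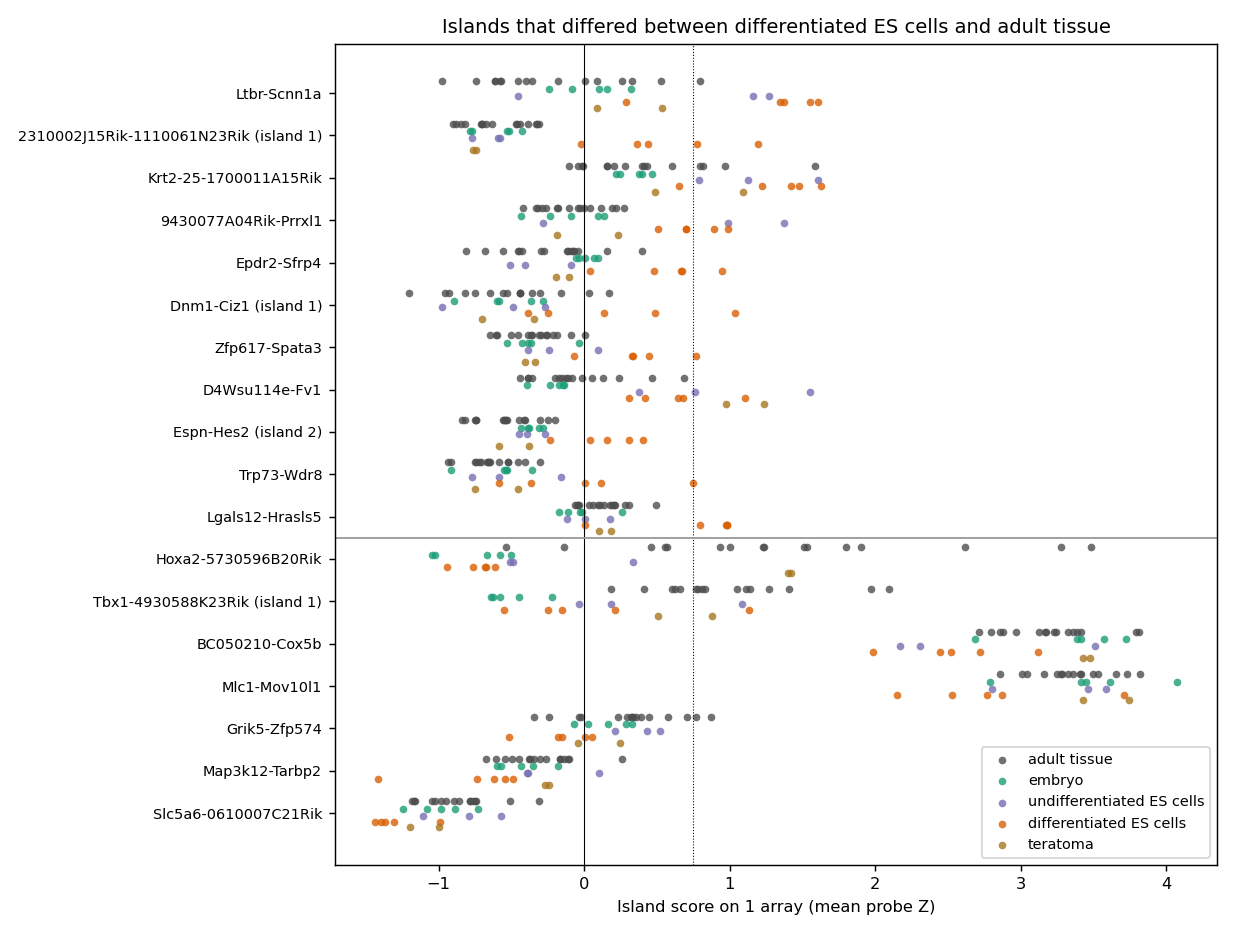
Scores of single arrays (points, horizontal axis, mean probe Z) at 11 islands with a large rise (above the grey line) and 7 with a large fall in differentiated ES cells against adult tissue, coloured by class. Differentiated arrays lie outside the adult range throughout at Cysrt1 with Rnf208, Prrxl1 and Hoxa2, and overlap it at the other 15 islands.

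Among the 24 islands that fell, the largest difference was again at Hoxa2. Differentiated ES cells had -0.613, -0.761, -0.679, -0.939 and -0.674, below all 16 adult arrays (-0.539 to 3.48, median 1.23). The difference was -2.07 (SE 0.422, adjusted p = 0.000514, limma), and with slide as a block -0.935 with an adjusted p of 0.465. Embryos had -1.05, -1.02, -0.664, -0.578 and -0.499 and were 2.10 lower than adult tissue on average (adjusted p = 0.00157, limma), while the teratomas had 1.42 and 1.40, near the adult median. An island of Tbx1, a T-box gene of the pharyngeal arches, had 0.210, 1.13, -0.156, -0.25 and -0.550 in embryoid bodies, retinoic acid treated cells, endoderm 1, endoderm 2 and mesoderm, against 0.185 to 2.09 in adult tissue. It fell by 0.905 (SE 0.247, adjusted p = 0.00764, limma), with embryoid bodies and retinoic acid treated cells inside the adult range. This island lies 1146 bases from the Tbx1 start.

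Falls at the other named islands were smaller. Slc5a6, a vitamin transporter, with Atraid, fell from a range of -1.18 to -0.308 to one of -1.44 to -0.990 (difference -0.431, adjusted p = 0.00661). Map3k12, a kinase of axon injury signalling, with Tarbp2, a partner of Dicer, had a difference of -0.457 (adjusted p = 0.0104), and Grik5, a kainate receptor, with Zfp574, one of -0.469 (adjusted p = 0.0178), and both overlapped adult tissue. The Mov10l1 and BC050210 islands fell by 0.545 and 0.644 (adjusted p = 0.0310 and 0.0152), though no differentiated array was under 1.98 at either.

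Undifferentiated ES cells differed from adult tissue at 5 divergent-promoter islands, where 2.3% of all islands were called, with 4 higher, where 0.984% of all islands were, and 1 lower, where 1.31% were. The count was 13 without J1 and 0 without EB5 or without TT2, so it depends on each line. The largest difference was at the island of Miip and Fv1, a gene that restricts murine leukaemia viruses, which had 1.55 in EB5, 0.379 in J1 and 0.763 in TT2 against -0.438 to 0.687 in adult tissue. It was 0.953 (SE 0.196, adjusted p = 0.0103, limma) with J1 and 1.21 (adjusted p = 0.000351) without. Differentiated cells had 0.311, 0.415, 1.11, 0.642 and 0.681, which was 0.686 above adult tissue (SE 0.159, adjusted p = 0.00199, limma). Embryos stayed between -0.396 and -0.135. The other higher islands were Prrxl1, Espn at 1.05, 0.832 and 1.22 (difference 0.655, adjusted p = 0.0161), and Icmt, a methyltransferase of prenylated proteins, paired with Hes3, at 0.240, 0.0240 and 0.00930 against -0.498 to -0.0438 (difference 0.350, adjusted p = 0.0475). The single lower island was at Dtymk, thymidylate kinase, paired with Ing5, with -0.861, -0.410 and -1.28 against -0.673 to -0.104 (difference -0.478, adjusted p = 0.0491). Without J1 the adjusted p was 0.00464 at Espn, 0.0351 at Icmt and 0.00125 at Dtymk (limma), with differences of 0.756, 0.384 and -0.697.

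Between differentiated and undifferentiated ES cells 8 islands were called, where 5.43% of all islands were, 5 of them higher, where 3.51% were, and 3 lower, where 1.92% were. The higher ones were Cysrt1 with Rnf208, Sfrp4, Lgals12, Spata3 and, chosen after its values were seen, the Hes2 island (difference 0.504, adjusted p = 0.0302, limma), with the scores given above. By the labels the differentiated arrays came from EB5 or TT2 and none from J1. The fit did not pair arrays by parent line, so differences between lines enter this comparison. The count of called islands was 14 without retinoic acid treated cells and 5 without J1, without TT2 or without endoderm 2. Without J1 the adjusted p was 0.115 at Spata3, 0.0861 at Hes2 and 0.0586 at Rpl15, so these 3 calls were lost. It was 0.0475 at Sfrp4, 0.0125 at Lgals12 and 0.0346 at Usp39, with differences of 0.810, 0.807 and -0.465. The lower ones included Usp39, a splicing factor paired with Tmem150a, and Rpl15, a ribosomal protein paired with Nkiras1. The Usp39 island lies 2006 bases from the Usp39 start and 7690 bases from that of Tmem150a. At Usp39 differentiated cells had -0.435, -0.483, -0.923, -0.545 and -0.464 and undifferentiated cells -0.200, -0.195 and -0.00946, with no overlap and a difference of -0.435 (SE 0.108, adjusted p = 0.0158, limma). At Rpl15 they had -0.896, -0.890, -0.990, -1.17 and -0.929 against -0.718, -0.645 and -0.485, again with no overlap (difference -0.359, SE 0.0959, adjusted p = 0.0240). With the deposited values 3 of 93 islands were higher and 14 lower in this comparison, or 18.3%, where 22.7% of all islands were called. With normexp correction, with the methods' t-test and with the compared classes alone in the fit 0 were called (14, 31 and 32 at an unadjusted p under 0.05), and with slide as a block 1 was.

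Embryos stood above adult tissue at 15 islands, or 5.40% where 5.17% of all islands did, and below it at 4, or 1.44% where 3.47% did, which made 19 islands where 8.64% of all were called. All embryo arrays but that of 8.5 days shared slides only with each other, and the count was 0 with slide, scan day or scanner software version as a block and 10 with slide as a random block, so class and slide cannot be told apart here. It was 12 without the embryo of 9.5 days. At Map1lc3b, the autophagy protein LC3B, paired with Fbxo31, embryos had 0.760, 1.03, 1.02, 1.02 and 0.785, above every adult array (-0.0746 to 0.560). The difference was 0.771 (SE 0.114, adjusted p = 5.67e-05, limma). That island lies 4714 bases from the Map1lc3b start and 6531 bases from that of Fbxo31. At Miga1, a protein of mitochondrial fusion, paired with Usp33, embryos had 0.908, 1.03, 0.951, 0.701 and 0.720 and adult tissue -0.351 to 0.472, with no overlap (difference 0.770, SE 0.125, adjusted p = 0.000174). The Zbtb4 island had 1.16 to 1.47 in embryos, a level that among adult tissues colon alone reached (difference 0.728, adjusted p = 0.00526). Stxbp2, a syntaxin-binding protein of secretion, paired with Pcp2, had 0.302 to 0.748 against -0.335 to 0.246 (difference 0.593, adjusted p = 0.00394), with the sign turned by a slide block.

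Below adult tissue in embryos, islands beside that of Hoxa2 included Tbx1 and Kdelr3. Embryos had -0.218, -0.628, -0.639, -0.581 and -0.446 at Tbx1, below all adult arrays, with a difference of -1.49 (SE 0.247, adjusted p = 0.00023, limma). At Kdelr3, a receptor that returns proteins to the endoplasmic reticulum, paired with the potassium channel gene Kcnj4, they had -0.193 to -0.493 against -0.288 to 0.75, a difference of -0.508 (adjusted p = 0.00659). That island lies 4356 bases from the Kdelr3 start and 6325 bases from that of Kcnj4.

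Against embryos, differentiated ES cells differed at 41 islands, where 21.1% of all islands were called. They were higher at 17 islands, where 11.8% of all islands were, or 6.12%, and lower at 24, where 9.29% were, or 8.63%. With slide as a block 0 were called by limma (39 at an unadjusted p under 0.05), and normexp background correction gave 7 higher and 2 lower. Shares of all islands under these settings are not given here either. Large rises were those of Ltbr, Cysrt1 and Krt87 and the largest falls those of the BC050210 island, Mov10l1, Miga1 and Map1lc3b. At Miga1 the differentiated samples had 0.234, 0.741, 0.258, -0.147 and 0.0587 (difference -0.633, SE 0.154, adjusted p = 0.00383), and at Map1lc3b 0.857, -0.0731, 0.118, 0.436 and 0.361 (difference -0.584, SE 0.141, adjusted p = 0.00358). Both overlapped the embryo range through a single array, and the Map1lc3b difference was 0.204 with slide as a block, while that of Mov10l1 was 0.313 with scanner software version as a block, each with the sign turned. All comparisons with adult tissue share the 16 adult arrays and those with differentiated ES cells the same 5 arrays, so calls at 1 island in several of them are not independent. In none of the 6 comparisons were 208 of the 278 islands called. The same count over all islands is not given here, so nothing particular to these islands is read from it.

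Teratomas differed from adult tissue at 1 divergent-promoter island, where 0.316% of all islands were called, 0.272% higher and 0.0441% lower, and 13 had an unadjusted p under 0.05 (limma). It was the Miip and Fv1 island, with 0.977 and 1.24, above all adult arrays, and a difference of 1.16 (SE 0.218, adjusted p = 0.0179). The call was lost when either teratoma was left out.

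Gene groups often found at divergent promoters were followed as lists. An island counted for a list when either gene of its pair was on it, so the listed gene can be the far one. The 12 islands of mitochondrial proteins had a median adult score of -0.431, and 6 were below 0 on every adult array. In differentiated ES cells 2 of the 12 were lower than adult tissue and 0 higher, where 8.73% and 14.4% of all islands were, and the lower ones were the BC050210 island and that of Uqcrq, a subunit of the cytochrome bc1 complex, which had -0.743 to -0.629 against -0.728 to -0.0684 (difference -0.303, adjusted p = 0.0105). At Mrpl51, a mitochondrial ribosomal protein, with Ncapd2, adult scores were -0.872 to -0.157 and differentiated ES cells had -0.837 to -0.552, and at Mrps18b -1.15 to -0.113 and -0.821 to -0.475. Neither was called. The 4 islands of DNA repair and replication had a median of -0.303 with 0 called in any comparison. Mcm4, a subunit of the replicative helicase, and Prkdc, the catalytic subunit of DNA-PK, share an island with -0.713 to -0.258 in adult tissue, whereas Brca1 with Nbr1 had -0.690 to 0.665. Wrn, the Werner helicase, and Mutyh, a DNA glycosylase, had adult medians of -0.161 and -0.421. The island of Mutyh lies 13 bases from the start of its partner Toe1 and 6409 bases from that of Mutyh.

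The 6 islands of clustered histone genes had the lowest list median, -0.559, and 0 calls, but their arrays were far apart. Hist1h2ac with Hist1h2bc ran from -1.49 to 0.469 in adult tissue, and Hist1h2bl with Hist1h2ai from -1.65 to 0.371. Copies of these genes are nearly identical, so probes may not separate them. The 4 islands of germline genes had a median of 1.37. Beside Mov10l1 and Tex12 they were Stag3, a meiotic cohesin, at 0.00386 to 0.634 in adult tissue, and Tdrd1, a Tudor protein of the piRNA pathway, at -0.615 to -0.111. The Tdrd1 island lies 3809 bases from the Tdrd1 start. In Min6 and aTC the Stag3 island had 1.47 and 1.47, above every other array. The lists of imprinted genes and of type IV collagen genes held no divergent-promoter island.

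The 9 islands of homeobox and developmental transcription factors, from 7 pairs, had a median adult score of 0.0516, above that of all islands. In differentiated ES cells 1 was higher than adult tissue (Prrxl1) and 2 lower (Hoxa2 and Tbx1), and in embryos 0 were higher and 2 lower. Of all islands 14.4% were higher and 8.73% lower in differentiated ES cells, and 5.17% and 3.47% in embryos, and nothing is read from counts so small. Sox8 had an adult mean of 0.0516 (SD 0.158, n = 16) and Tlx2 of -0.394 (SD 0.168, n = 16), with 0 calls at either. The Tlx2 island lies 82 bases from the start of its partner Pcgf1 and 7573 bases from that of Tlx2. Over the 9 islands the median was -0.211 in ex vivo beta cells, 0.889 in Min6 and 0.805 in aTC.

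Islands low in ex vivo beta cells and high in the pancreatic lines could be described only, with 1 array each. Of the 278 islands 12 were below 0 in beta cells and above 0.75 in Min6 or aTC, or 4.32%, where 7.32% of all islands were, and 4 passed in both lines, or 1.44% against 2.75%. On the line arrays 24 and 26 divergent-promoter islands were above 0.75, against 13 in beta cells, and over all islands 19.5% and 23.1% against 12.7%. At the island of Hoxd13 and Evx2, homeobox genes of limb and trunk, beta cells had -0.211, Min6 1.99 and aTC 1.96, and no adult array passed 0.175. At Zic2 with Zic5, zinc finger genes of the neural plate, the values were -0.606, 1.14 and 0.863, and this island, with 21 probes, was among the longest. Another island of the Tbx1 pair, not the island that fell above, had -0.343, 1.11 and 1.00. It lies 19 bases from the start of 4930588K23Rik and 4664 bases from that of Tbx1. Prrxl1 had -0.408, 0.843 and 0.676. Hoxa2 had -0.962 in beta cells, 0.583 in Min6 and 0.805 in aTC, with 0.459 and 0.566 in whole pancreas. Whole pancreas was below 0.2 at the other islands of this kind. In all, 5 of the 9 islands of homeobox and developmental factors were among the 12.

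**Figure D5:**
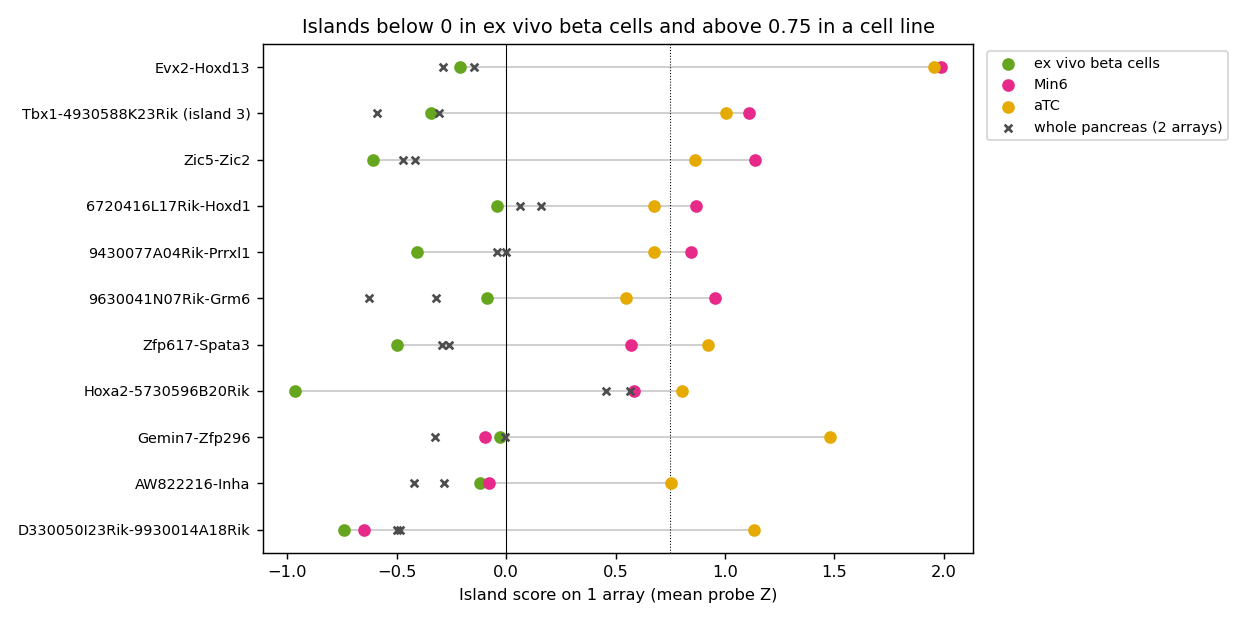
Scores (horizontal axis, mean probe Z, 1 array each) of ex vivo beta cells, Min6, aTC and 2 arrays of whole pancreas at 11 islands below 0 in beta cells and above 0.75 (dotted line) in a line. Hoxd13 with Evx2 stands furthest out, at 1.99 and 1.96 in the lines and -0.211 in beta cells.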

How the data were processed

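Bound (Cy5) and input (Cy3) DNA of 34 mouse samples were hybridised on Agilent CpG island arrays. The deposited scanner files gave the log10 ratio of bound over input of each probe, which the authors had obtained with Agilent Feature Extraction after background subtraction and linear dye normalization, and the intensity of both channels. A deposited value table held a score per probe. All columns used were mapped to a sample (0 unmapped). Control and outlier probes were left out, log10 ratios were standardised within each array over 88737 or 97651 probes, and island scores averaged over probes of at least 3 per island. The correction for melting temperature used by the authors was not made. Only 1 scanner file carried the annotation of probes, and it was applied to all arrays.

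Adult tissue, embryos and both kinds of ES cells were compared in 1 linear model, and teratomas and single tissues in models of their own (R 4.3.3, limma 3.58.1, eBayes, Benjamini-Hochberg over 13616 islands, threshold 0.05). Summaries used Python 3.11.15, numpy 2.4.6, pandas 2.3.3, scipy 1.17.1 and matplotlib 3.10.9. Scripts were tested on simulated data. Precision is limited by the number of arrays. Members and lists were chosen with earlier results of these data known. Genes were named by rule, as the 12 largest positive and 8 largest negative called differences between differentiated ES cells and adult tissue and the 4 largest each way in other comparisons, with 1 island per gene, besides the lists and islands in high or pancreatic classes. A few islands that the rule names are not reported here. Gene symbols were updated through RefSeq, with 363 of 518 names current, 136 matched through synonyms, 1 on another chromosome and 18 unmatched. Alternatives covered background correction, scale, probe filters, blocks, membership and left-out arrays.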

Additional observations from a re-analysis of the deposited data

Results flagged for a closer look

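In 94 groups of 5 arrays, at the named islands and at the median score of the 278 islands, 7 had 1 array far from the other 4, and chance alone gives about 1 in 20 such groups. Among embryos, that of 8.5 days scored -1.6278 at Hist1h2ac with Hist1h2bc, where the others lay between -0.184 and 0.0113. Among differentiated ES cells, endoderm 1 was the lowest array at 4 islands, with -1.0289 at Hist1h2bl with Hist1h2ai (others -0.348 to -0.0986), -1.4193 at Map3k12 with Tarbp2 (others -0.734 to -0.486), -0.9228 at Usp39 (others -0.545 to -0.435) and 0.288 at Ltbr with Scnn1a (others 1.35 to 1.60). Retinoic acid treated cells scored 0.0083 at Lgals12 with Plaat5 (others 0.796 to 0.983), and embryoid bodies 0.7914 at Pcp2 with Stxbp2 (others -0.0653 to 0.133).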

How the results depend on the processing

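Of 265 alternative values of the counts and medians, 182 stayed within 1.5 times the reported count or within the spread between arrays and 83 moved. The cause was not tested. Called islands are counted here among divergent-promoter islands only, so a shift in a count is not read as particular to them. Numbers of called islands are given below in the order differentiated ES cells against adult tissue (46 as reported), undifferentiated ES cells against adult tissue (5), embryos against adult tissue (19), differentiated against undifferentiated ES cells (8), differentiated ES cells against embryos (41) and teratomas against adult tissue (1), leaving out those that stayed near the reported count. Normexp correction of the median signals gave 23, 0 (18 at an unadjusted p under 0.05, limma), 2, 0 (14), 9 and 7, and the deposited values 16, 14, 9, 17, 14 and 0 (6) of 93. A log2 ratio gave 0 (23) where undifferentiated ES cells were set against adult tissue, 4 between both kinds of ES cells and 0 (14) for teratomas. Islands of at least 5 probes gave 30, 3, 5 and 26 for the comparisons other than those of embryos or teratomas with adult tissue, and the median of the probes 5 between both kinds of ES cells. For undifferentiated ES cells set against adult tissue and then against differentiated ones, the methods' t-test after Benjamini-Hochberg gave 0 (26) and 0 (31), and a fit to the compared classes alone 2 and 0 (32). Slide as a block gave 26, 2, 0 (19), 1 and 0 (39) for the comparisons without teratomas. Scan day gave 0 (5), 0 (13) and 1 for undifferentiated ES cells against adult tissue, embryos against adult tissue and differentiated ES cells against embryos, and software version gave 1, 0 (15) and 2 for these and 0 (15) for teratomas. Slide as a random block, chosen after seeing the data, gave 10 for embryos. Islands whose every probe is divergent (71) gave 14, 2, 5, 3, 13 and 0 (1), islands with at least 1 such probe (1215) 178, 9, 103, 30, 182 and 3, and ties counted as members, also chosen after seeing the data, 30 for embryos and 2 for teratomas.

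Leaving out each array in turn gave 35 to 45, 0 to 13, 12 to 16, 5 to 14, 31 to 47 and 0 to 0 (8 and 15 at an unadjusted p under 0.05). The count for undifferentiated ES cells against adult tissue was 0 without EB5 (31) and without TT2 (14) and 13 without J1. The same omission left 110 to 119 islands below 0 on all adult arrays, 3 to 4 above 0.75, and 1 to 2 low in adult tissue and high in differentiated ES cells. The deposited table scored 93 islands, at least 1 probe was divergent at 1215 and every probe at 71. The 110 islands below 0 (39.6%) became 48, 551 and 17 in these sets (51.6%, 45.3% and 23.9%), and 28 and 176 with thresholds of -0.25 and 0.25. The 3 islands above 0.75 became 1, 9 and 1 under the first 3 of these settings. The 2 islands low in adult tissue and high in differentiated cells became 1, 4 and 1 likewise, 1 with the median of the probes, with gaps of at most 300 bases or with a high threshold of 1, and 5 with a low threshold of 0.25. The 12 islands gained in pancreatic lines became 5, 26 and 7 likewise, 5 with a threshold of 1 and 6 with one of -0.25. The median score by array, -0.321, became -0.231 where every probe is divergent. Of 767 alternative values at named islands, 559 kept direction and call, 204 no longer passed the threshold and 4 reversed. The reversed differences were, for embryos against adult tissue, -0.0263 (slide) and -0.115 (scan day) at Pcp2 with Stxbp2, and, for differentiated ES cells against embryos, 0.313 (software version) at Mov10l1 and 0.204 (slide) at Map1lc3b.

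Replicate numbers marked a shared scan batch in 6 of the 8 tissues, where the correlation of replicate differences was 0.00645 to 0.629 over 15 pairs of tissues with 14 over 0.1, but not in colon and pancreas (-0.253 at the lowest, over 28 pairs in all). They also marked sex in those 6 tissues apart from lung, so scan batch and sex cannot be told apart there. With the replicate number as a block the adult F-test of limma called 0 islands (6 at an unadjusted p under 0.05). Within those 6 tissues, chosen after seeing the data, it called 0 with the number as a block (4) and 0 otherwise, where no island was under 0.05 unadjusted either (0 of 278). A slide block could not be fitted for teratomas, and normexp on mean signals was not run because part of the files lack them. Bound signal as low as 1.54 times the background limits what the weakest arrays can show.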
